A study of Mus musculus with 9 samples.

Results

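The 6 genes described here encode members of the interleukin-10 (IL-10) cytokine family and the receptor of IL-10. They comprise the ligand genes Il10, Il19, Il20 and Il24 and the receptor chain genes Il10ra and Il10rb, chosen by gene symbol, and each had 1 row among the 21212 rows of the expression table. Primary microglia, the resident macrophages of the brain, came from wild-type CD-1 pups of postnatal day 0 to 1 and were grown for 5 to 7 days with 10 ng/ml each of M-CSF and GM-CSF. After a night without serum they received, for 4 hours, 100 ng/ml LPS (M1-skewed), 20 ng/ml IL-4 (M2a-skewed) or the same volume of PBS (resting), with 3 Affymetrix Mouse Exon 1.0 ST arrays per condition. Brains of a litter were pooled. By the order of the study's account the cells came from a Percoll gradient, since CD11b beads served a later isolation measured by RT-PCR, while the array labels themselves name no isolation method.

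LPS is a bacterial cell wall component sensed by Toll-like receptor 4, and IL-4 is a cytokine of type 2 immunity that acts through STAT6. IL-10 limits inflammatory gene expression in macrophages. It binds IL-10R1, encoded by Il10ra, which pairs with IL-10R2, encoded by Il10rb, and the complex signals through the kinases JAK1 and TYK2 to STAT3. IL-19, IL-20 and IL-24 instead bind receptors that contain the IL-20R2 chain, encoded by Il20rb. In bulk RNA, more or fewer cells of a type cannot be told apart from more or less RNA per cell.

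The arrays showed the markers of microglia. Of the 12 listed microglia and macrophage genes 10 had a named row, and their mean log2 level lay between 10.53 and 10.67 on the LPS arrays, between 10.81 and 10.89 on the IL-4 arrays and between 10.77 and 11.10 on the PBS arrays. With LPS 2 of these 10 were called higher (Ptprc and Spi1) and 6 lower, Cx3cr1, Trem2 and Csf1r by the largest differences, and with IL-4 only Trem2 was called, lower. Of the calls with LPS, that of Spi1 was lost in 10 of 19 other settings (7 of them without a single array), those of Itgam and C1qa in 6 and 5 (without LPS replicate 1 or 2 in both, and for Itgam without PBS replicate 2 or 3), and those of Tyrobp and Cx3cr1 in 2 and 1. The Trem2 call with IL-4 was lost in 1. Replicate 3 of LPS and of PBS stood apart: all 6 motile cilia genes were higher there than on the other two arrays of the condition, by a median of 1.50 (LPS) and 1.81 (PBS), and so were all 7 measured oligodendrocyte lineage genes, by 1.17 (LPS) and 0.94 (PBS). The mean level of the cilia genes was 7.55, 7.44 and 9.11 on the LPS arrays, 8.90, 9.19 and 9.10 on the IL-4 arrays and 7.79, 7.84 and 9.55 on the PBS arrays, so that all IL-4 arrays were high like these replicates. Astrocyte RNA was also plain: the 7 genes averaged 9.97 to 10.27 (LPS), 10.03 to 10.07 (IL-4) and 9.84 to 10.30 (PBS), not far below the microglia list. In replicate 3 they were higher by a median of 0.49 with LPS and 0.62 with PBS. Of the 7, 4 (LPS) and 6 (PBS) were above both other arrays. Dcn, Lum and Col3a1, 3 of the 5 fibroblast genes, and Cdh5 and Pecam1, 2 of the 4 endothelial genes, were called higher with IL-4 than with PBS, of which Col3a1 lost its call in 8 settings (without any IL-4 array or PBS replicate 2 among them), Pecam1 in 2 and Lum and Cdh5 in 1 each. Other lists held few calls: with LPS, Slc1a2 of 7 astrocyte genes, Nefl of 6 neuron genes, Cd79a of 4 B cell genes and S100a8 and Camp of 5 neutrophil genes were higher and Olig1 and the mast cell gene Kit were lower, and with IL-4 Gad1 was lower. Apart from Slc1a2 these calls were not stable. They were lost in 11 settings for Camp, 10 for Kit, 9 for Gad1, 6 for Olig1, 5 for S100a8, 3 for Cd79a and 1 for Nefl, in each but Nefl without 1 or more single arrays. The mean level of the 5 T and NK cell genes was 4.89 to 4.97 (LPS), 4.71 to 4.82 (IL-4) and 4.79 to 4.98 (PBS), and none of these or of the 4 keratinocyte genes was called against PBS. The part of such cells in the results was not tested.

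LPS raised 4 of the 6 genes, Il10, Il19, Il20 and Il10ra, and lowered none, whereas Il24 and Il10rb did not pass the test. IL-4 lowered Il10ra and called none of the other 5. Genes were called at an adjusted p under 0.05 in limma, a linear model with moderated variances over all 9 arrays, with Benjamini-Hochberg adjustment over all rows. With LPS against PBS 37.8% of all rows were called, 15.4% higher and 22.4% lower. With IL-4 against PBS 5.40% were called, 3.35% higher and 2.05% lower. Setting LPS against IL-4 called 46.9% of the rows, 21.0% higher and 25.9% lower, and 4 of the 6 genes, all higher with LPS. The median log2 fold change of the 6 genes was 0.37 for LPS against PBS, −0.02 for IL-4 against PBS and 0.70 for LPS against IL-4, beside 0.01, −0.02 and 0.03 over all rows.

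**Figure D1:**
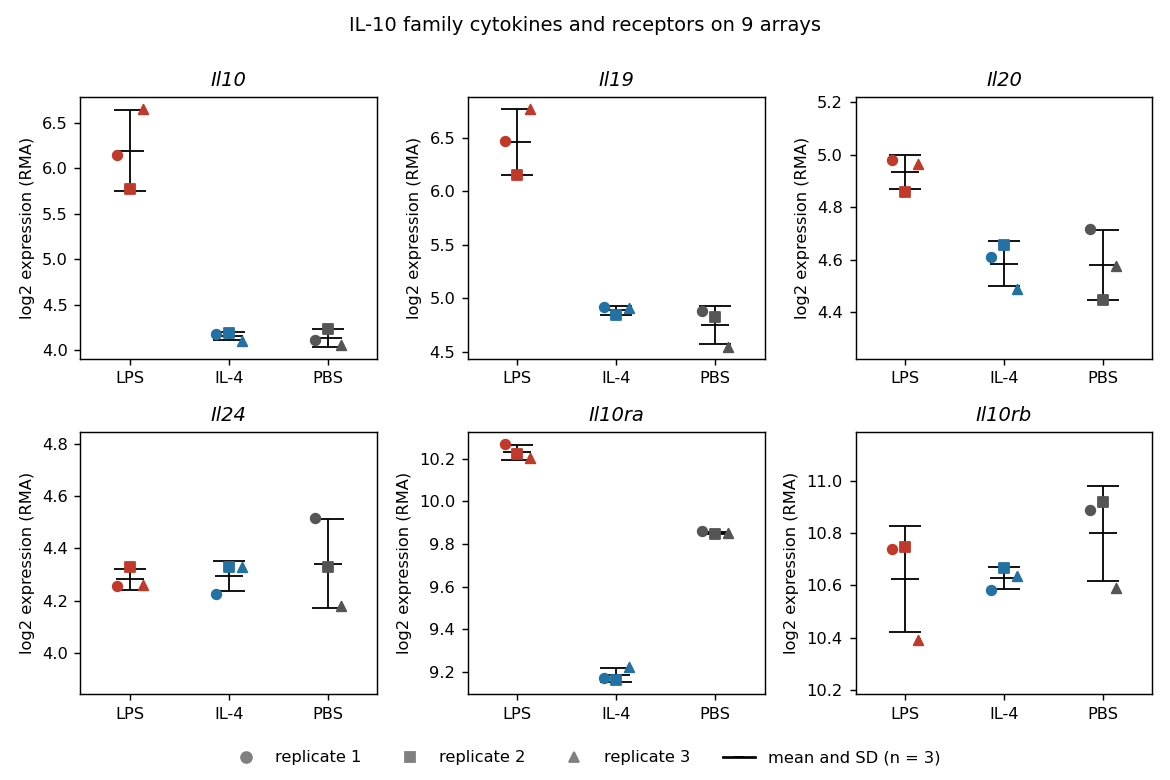
Log2 expression of the 6 genes on each of the 9 arrays, with LPS, IL-4 and PBS from left to right in each panel, replicates as symbols, and bars for the mean and SD (n = 3). Il10 and Il19 are higher on the LPS arrays than on all others, though still below the medians of those arrays (7.20 to 7.26). Il10ra takes 3 separate levels, highest with LPS and lowest with IL-4.

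Il10 (Entrez 16153) encodes the founding cytokine of the family and lies on chromosome 1. Its log2 expression was 6.15, 5.77 and 6.66 on the LPS arrays (replicates 1, 2 and 3), 4.18, 4.19 and 4.10 on the IL-4 arrays and 4.11, 4.24 and 4.05 on the PBS arrays. Every LPS array was above every other array, and the IL-4 and PBS arrays overlapped. Il10 thus rose 4.16-fold with LPS against PBS, a log2 fold change of 2.06 ± 0.19 (SE, n = 3 each, limma adjusted p = 4.40e-05). Between arrays of the same replicate number the LPS-minus-PBS difference was 2.04, 1.53 and 2.60, smallest for replicate 2 and largest for replicate 3. Without replicate 3 of LPS and of PBS the log2 fold change was 1.78 (limma adjusted p = 1.73e-05). IL-4 gave a log2 fold change of 0.02, with a 95% confidence interval from −0.40 to 0.45. Against IL-4, LPS was higher by 2.03 ± 0.19 (SE, limma adjusted p = 4.52e-05).

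Il19 (Entrez 329244), the next family gene along the chromosome, encodes a cytokine of the IL-20 subfamily. It measured 6.48, 6.15 and 6.77 with LPS, 4.92, 4.84 and 4.90 with IL-4 and 4.88, 4.82 and 4.55 with PBS. The LPS arrays again stood clear of the rest, with replicate 3 highest and replicate 2 lowest, the same order as for Il10. The log2 fold change was 1.72 ± 0.15 for LPS against PBS (SE, 3.29-fold, limma adjusted p = 3.37e-05) and 1.58 ± 0.15 for LPS against IL-4 (limma adjusted p = 5.35e-05). With IL-4 against PBS it was 0.14, with an interval from −0.20 to 0.48 and overlapping arrays.

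Il20 (Entrez 58181), which encodes another ligand of that subfamily, changed less. It measured 4.98, 4.86 and 4.96 with LPS, 4.61, 4.66 and 4.49 with IL-4 and 4.72, 4.45 and 4.57 with PBS. All 3 LPS arrays were above all others, but the lowest LPS array (4.86) lay close above the highest PBS array (4.72). The log2 fold change was 0.36 ± 0.08 against PBS (SE, 1.28-fold, limma adjusted p = 0.00728) and 0.35 ± 0.08 against IL-4 (adjusted p = 0.00708). The call against PBS was lost with the methods' t-test (adjusted p = 0.0553), and a further quantile normalization lowered the change to 0.27. All 4 ligand genes lay among the 7071 dimmest of the 21212 rows, by their mean over the 9 arrays, and these rows had a median LPS-minus-PBS change of 0.07, against −0.10 in the brighter rows. What part this shift has in the small Il20 difference was not tested. IL-4 against PBS gave 0.01 (95% confidence interval −0.18 to 0.19).

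Il24 (Entrez 93672), the remaining ligand gene, which encodes a cytokine studied for its effect on tumor cells, stayed uncalled throughout. Its values were 4.26, 4.33 and 4.26 with LPS, 4.23, 4.33 and 4.33 with IL-4 and 4.52, 4.33 and 4.18 with PBS. The PBS arrays alone covered the range of the other arrays. The log2 fold change was −0.06 for LPS against PBS (95% confidence interval −0.25 to 0.13, limma adjusted p = 0.617), −0.05 for IL-4 against PBS (−0.24 to 0.14) and −0.01 for LPS against IL-4 (−0.20 to 0.18). For the deposited values, these intervals leave room for changes of up to about 0.25. A change of the size seen for Il10 or Il19 lies outside them. Il24 was among the dimmest rows, whose signal over background is not given, so the intervals cannot show that its RNA stayed the same.

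**Figure D2:**
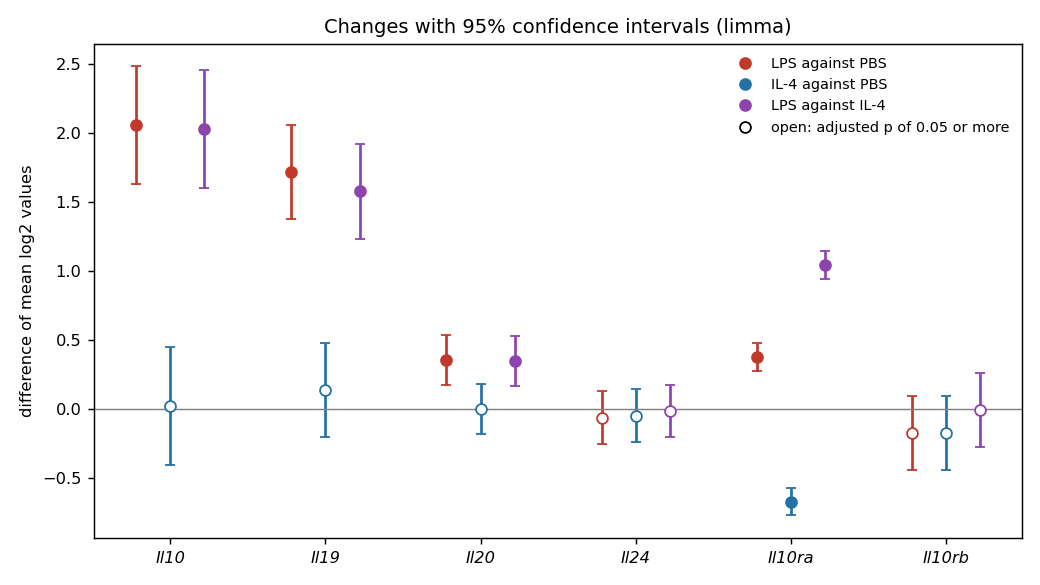
Difference of mean log2 values for each gene in the 3 comparisons, LPS against PBS, IL-4 against PBS and LPS against IL-4, with 95% confidence intervals from limma and filled points for an adjusted p under 0.05. The changes of Il10 (2.06) and Il19 (1.72) with LPS are far from 0, while only Il10ra is called with IL-4 (−0.67).

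Of the 6 genes, only Il19 and Il20 had a promoter entry from RefSeq, so only their sequence around the transcription start is shown. It runs from 250 bases before to 50 after the start. The Il19 window is chr1:130940066-130940365 and the Il20 window chr1:130911247-130911546 (GRCm38.p6, both minus strand). The Il20 start is the outermost one annotated for that gene, whereas Il19 also has an annotated start further upstream. Each line reads 5′ to 3′, and the capitals mark the motif matches.
Il19: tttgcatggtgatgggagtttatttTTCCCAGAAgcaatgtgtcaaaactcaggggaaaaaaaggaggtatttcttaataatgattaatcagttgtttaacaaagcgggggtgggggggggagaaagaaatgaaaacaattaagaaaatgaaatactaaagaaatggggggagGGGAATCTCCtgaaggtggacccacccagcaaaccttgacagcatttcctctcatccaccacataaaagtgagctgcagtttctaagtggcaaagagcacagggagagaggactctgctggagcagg
Il20: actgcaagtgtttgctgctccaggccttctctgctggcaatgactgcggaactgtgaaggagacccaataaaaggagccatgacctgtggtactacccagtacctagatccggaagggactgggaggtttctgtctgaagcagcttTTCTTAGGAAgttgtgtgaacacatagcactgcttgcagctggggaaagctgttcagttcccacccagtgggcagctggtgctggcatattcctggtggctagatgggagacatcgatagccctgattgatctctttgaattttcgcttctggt
Both strands were searched for the NF-κB consensus, for the STAT motif TTCNNNGAA and its wider STAT6 spacing TTCNNNNGAA, and for the C/EBP motif TTGCNNAA. The AP-1 motif searched was TGANTCA. The TATA box was searched as the letters TATAAA. The Il19 window held a STAT match at −225 to −217 and an NF-κB match at −77 to −68 from the start, which did not overlap. The Il20 window held a match to the STAT6 spacing at −104 to −95. Among 32851 windows of this length, 8.46% held an NF-κB match, 8.30% a STAT match, 6.95% a STAT6-spacing match, 7.81% an AP-1 match, 13.6% a TATA match and 10.8% a C/EBP match. G and C made up 44.0% of the Il19 window and 51.3% of the Il20 window. A match describes the letters only, and binding was not measured.

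Il10ra (Entrez 16154, chromosome 9), the ligand-binding chain of the IL-10 receptor, moved in opposite directions under the 2 stimuli. It measured 10.27, 10.22 and 10.20 with LPS, 9.17, 9.16 and 9.22 with IL-4 and 9.86, 9.85 and 9.85 with PBS. The 3 conditions did not overlap, and the spread within each was small (SD 0.03 with LPS, 0.03 with IL-4 and 0.01 with PBS). Il10ra rose with LPS by 0.38 ± 0.04 on the log2 scale (SE, 1.30-fold, limma adjusted p = 1.94e-04) and fell by 0.67 ± 0.04 with IL-4 (1.59-fold lower, limma adjusted p = 1.40e-04). The difference between the stimuli, LPS against IL-4, was 1.05 ± 0.04 (2.07-fold, limma adjusted p = 4.62e-07). Both calls against PBS held under each of the 19 other settings tried.

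Il10rb (Entrez 16155, chromosome 16) encodes the accessory chain, which is also part of the receptors for IL-22 and the lambda interferons. It measured 10.74, 10.75 and 10.39 with LPS, 10.58, 10.67 and 10.64 with IL-4 and 10.89, 10.92 and 10.59 with PBS. Replicate 3 was lower than the mean of the other two by 0.35 with LPS and by 0.31 with PBS, which are the arrays with the high cilia and oligodendrocyte levels, and the part of those cells in it was not tested. The log2 fold change was −0.17 ± 0.12 with LPS (SE, limma adjusted p = 0.286) and −0.17 ± 0.12 with IL-4 (limma adjusted p = 0.446), and −0.0031 between the stimuli (95% confidence interval −0.27 to 0.26). Within each replicate number the LPS array was lower than the PBS array. With the number as a block over the 6 arrays, a pairing that the labels do not state, Il10rb was called lower with LPS (limma adjusted p = 0.0303). With the block over all 9 arrays it was not called (adjusted p = 0.151). Nor was it called without LPS replicate 3, where the log2 fold change was −0.056, or without PBS replicate 3, where it was −0.28. Without replicate 3 of LPS and of PBS it was called lower both with LPS (−0.16, adjusted p = 0.0283) and with IL-4 (−0.27, adjusted p = 0.00362), which made 5 of the 6 genes called with LPS and 2 with IL-4. On these 7 arrays 47.4% of all rows were called with LPS, 19.1% higher and 28.3% lower, and 30.1% with IL-4, 16.6% higher and 13.5% lower, so that 2 of 6 genes with IL-4 is near the share of all rows. The 7 arrays also set the 3 IL-4 arrays, where the cilia genes averaged 8.90 to 9.19, against PBS replicates 1 and 2, where they averaged 7.79 and 7.84, and the part of those cells in the difference was not tested. The call of Il10rb thus differed between settings.

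**Figure D3:**
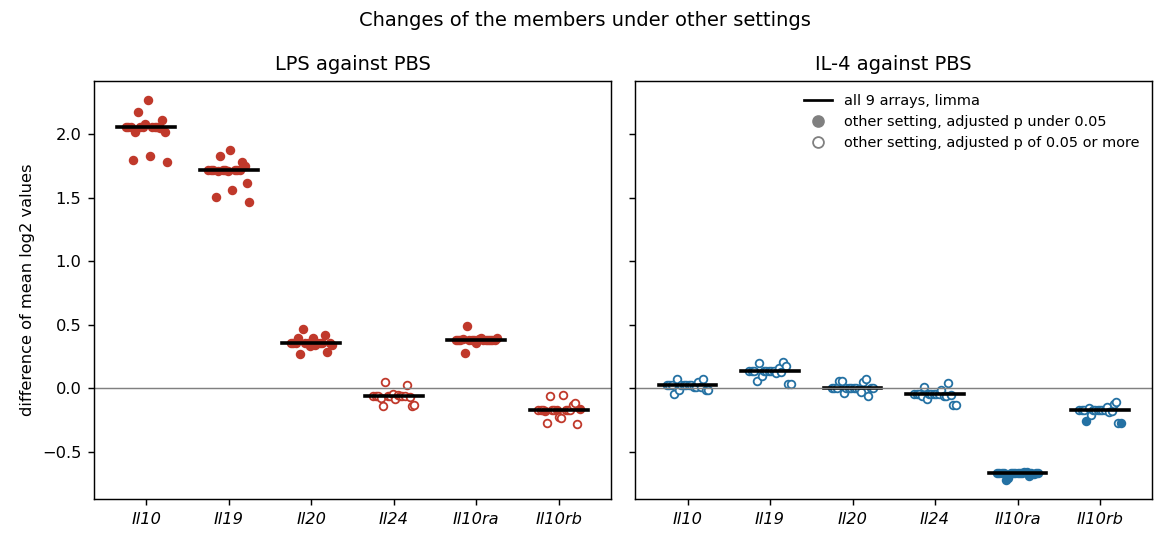
Log2 fold changes of the 6 genes under the other settings (points; filled where the adjusted p was under 0.05) around the value from all 9 arrays (line), for LPS against PBS on the left and IL-4 against PBS on the right. Il10, Il19 and Il10ra stay called with LPS and Il10ra stays called with IL-4, while Il10rb is called in some settings only.

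The receptor chains for IL-19, IL-20 and IL-24 were set beside their ligands. Of 10 other genes of the class II cytokine receptor family, to which the IL-10 receptor belongs, 3 rose and 1 fell with LPS, and 1 rose with IL-4, with medians of 0.13 and −0.01. Both counts are near the share of all rows called, 37.8% with LPS and 5.40% with IL-4. With the 7 arrays other than replicate 3 of LPS and PBS, 4 rose and 1 fell with LPS and 3 rose with IL-4, where 47.4% (LPS) and 30.1% (IL-4) of all rows were called. Il20rb, the chain shared by the receptors of IL-19, IL-20 and IL-24, measured 7.54, 7.56 and 7.46 with LPS, 8.16, 8.23 and 8.25 with IL-4 and 6.96, 6.78 and 6.70 with PBS. The 3 conditions were fully separate, with IL-4 highest. Il20rb rose by 0.70 ± 0.07 with LPS (SE, limma adjusted p = 8.87e-05) and by 1.40 ± 0.07 with IL-4 (limma adjusted p = 4.00e-05), and LPS against IL-4 gave −0.69 ± 0.07 (limma adjusted p = 9.13e-05). Thus IL-4 raised this receptor chain while its ligand genes Il19, Il20 and Il24 were not called.

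The partners of Il20rb were not called against PBS. Il20ra, which completes the receptor for all 3 ligands, measured 4.65, 4.83 and 4.61 with LPS, 4.61, 4.47 and 4.29 with IL-4 and 4.61, 4.60 and 4.54 with PBS. Il22ra1, which forms the other receptor for IL-20 and IL-24, measured 5.22, 5.07 and 4.95 with LPS, 4.83, 4.86 and 4.90 with IL-4 and 5.05, 4.96 and 4.84 with PBS. The LPS and PBS arrays overlapped for both. Il22ra2, a soluble receptor that captures IL-22, gave 0.20 with LPS (limma adjusted p = 0.0541), and was called higher without LPS replicate 3 (0.27, adjusted p = 0.00987). Ifnlr1, the lambda interferon receptor chain that pairs with IL-10R2, gave 0.03 with LPS and −0.03 with IL-4, neither called.

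Of the 5 more distant receptors of the family, 3 were called with LPS. F3, tissue factor, which starts blood clotting and shares this receptor fold, rose by 1.12 ± 0.08 (SE, limma adjusted p = 1.46e-05), and Ifnar1, a chain of the type I interferon receptor, by 0.31 ± 0.06 (adjusted p = 0.00229). Ifngr1, the ligand-binding chain for interferon gamma, fell by 0.54 ± 0.07 with LPS (adjusted p = 3.18e-04), with values of 9.84, 9.95 and 9.89 with LPS against 10.35, 10.40 and 10.56 with PBS. Ifngr1 was not called with IL-4 (0.26, adjusted p = 0.0697), and was called higher there without PBS replicate 3 (0.32, adjusted p = 0.0194). Ifnar2 and Ifngr2, the partner chains of these interferon receptors, were not called with LPS (0.13, adjusted p = 0.108 for Ifnar2, and −0.057, adjusted p = 0.430 for Ifngr2).

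**Figure D4:**
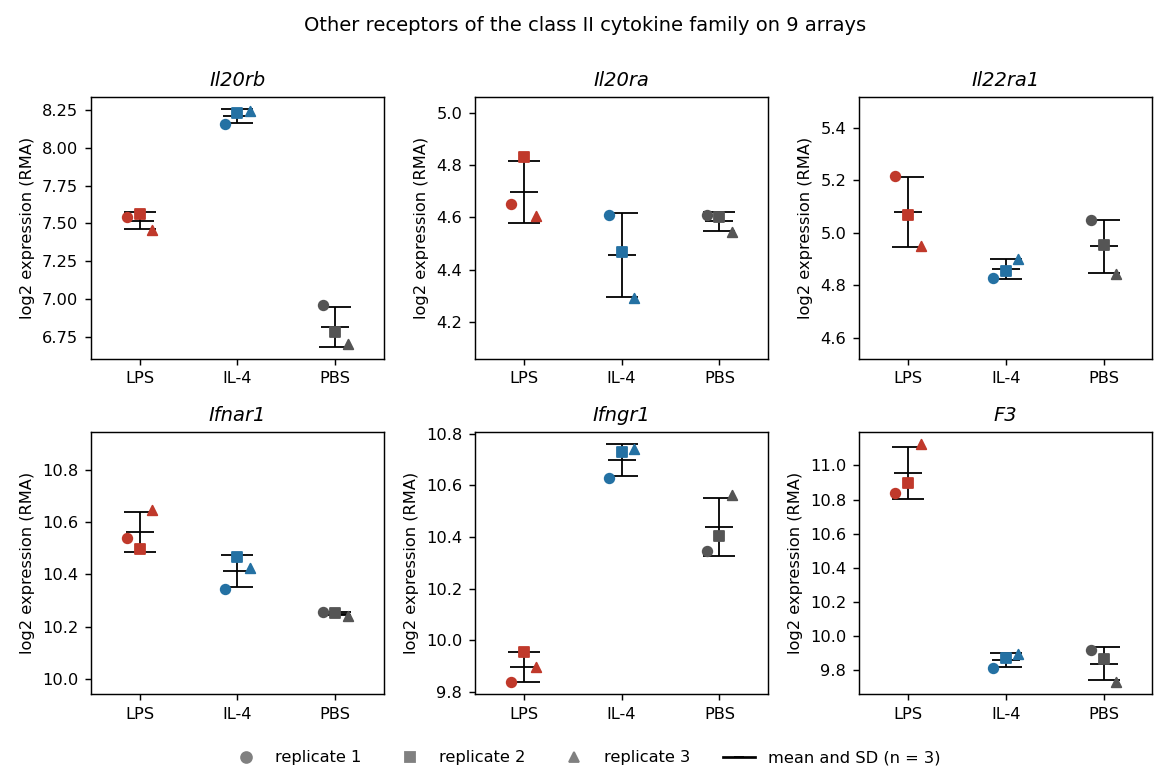
Log2 expression of 6 other genes of the class II cytokine receptor family on each array, with LPS, IL-4 and PBS from left to right, symbols for replicates, and bars for the mean and SD (n = 3). Il20rb is highest with IL-4 (8.16 to 8.25), intermediate with LPS and lowest with PBS, and Ifngr1 is lowest with LPS.

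Of 4 further ligand genes of the family 3 were measured, and none was called against PBS, beside 37.8% (LPS) and 5.40% (IL-4) of all rows. Iltifb, a near copy of the mouse IL-22 gene, gave 0.19 with LPS (limma adjusted p = 0.0646). The lambda interferon genes Ifnl2 and Ifnl3, which are near copies of each other, gave 0.17 (adjusted p = 0.0501) and 0.04 with LPS and −0.16 and −0.13 with IL-4. Probes may not separate such copies. Without LPS replicate 3, Iltifb (0.24, adjusted p = 0.0250) and Ifnl2 (0.20, adjusted p = 0.0315) were called higher with LPS. Il22 was not analysed here.

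Genes that carry or limit the IL-10 receptor signal mostly rose with LPS: 5 of 7 measured genes were higher and 1 was lower, with a median of 0.71, whereas IL-4 raised 1 and gave a median of −0.06. LPS raised 15.4% and lowered 22.4% of all rows, and IL-4 raised 3.35%. On those 7 arrays 6 were higher and none lower with LPS, beside 19.1% of all rows higher and 28.3% lower. With IL-4 2 were higher and 2 lower there, beside 30.1% of all rows called. Socs3, a STAT3 target that inhibits cytokine receptor signaling, rose by 2.83 ± 0.08 with LPS (SE, limma adjusted p = 3.56e-08). Its level was 11.05, 10.91 and 11.14 with LPS against 8.31, 8.21 and 8.09 with PBS. Socs1, an inhibitor of JAK kinases, rose by 2.81 with LPS (adjusted p = 9.44e-08) and by 1.21 with IL-4 (adjusted p = 2.47e-04). Of the kinases at the receptor, Tyk2 rose by 1.03 ± 0.15 with LPS (adjusted p = 7.99e-04). Jak1 rose by 0.21 ± 0.06 (adjusted p = 0.0259), a call lost without LPS replicate 1 or 2 or PBS replicate 1 or 3 (0.16 to 0.22, adjusted p between 0.0518 and 0.0856). Stat3, the transcription factor that IL-10 activates, rose by 0.71 ± 0.08 (adjusted p = 1.34e-04). Pias1, a SUMO ligase, fell by 0.24 ± 0.06 (adjusted p = 0.0166). This call was lost in 4 other settings, among them without PBS replicate 2 (−0.23, adjusted p = 0.0538) and on the 7 arrays.

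Of 14 measured genes known to respond to IL-10 in macrophages, 10 rose with LPS and none fell (median 0.79), and with IL-4 5 rose and 2 fell (median 0.13). Among all rows 15.4% rose and 22.4% fell with LPS, and 3.35% rose and 2.05% fell with IL-4. On the 7 arrays other than replicate 3 of LPS and PBS, 12 rose with LPS, beside 19.1% of all rows. With IL-4 5 rose and 4 fell on these arrays, beside 16.6% of all rows higher and 13.5% lower. Over all other settings the count that rose with IL-4 ran from 3 to 5, and the count that fell from 1 to 4. Lists share members, such as Socs3, Nfil3, Stat3, Il1rn and Mapkapk2. Tnip3, a binding partner of the NF-κB inhibitor A20, measured 10.49, 10.36 and 10.69 with LPS, 9.62, 9.57 and 9.60 with IL-4 and 6.68, 6.92 and 7.61 with PBS. It rose by 3.45 ± 0.21 with LPS (SE, limma adjusted p = 3.80e-06) and by 2.53 ± 0.21 with IL-4 (limma adjusted p = 3.55e-04). Il1rn, the IL-1 receptor antagonist, rose by 2.15 with LPS (adjusted p = 4.94e-06). The transcriptional repressors Nfil3 and Etv3 rose with both stimuli, Nfil3 by 1.43 with LPS and 1.10 with IL-4, and Etv3 by 0.38 with LPS and 0.69 with IL-4. Fcgr1, an activating receptor for IgG, fell by 1.78 ± 0.15 with IL-4 (adjusted p = 3.55e-04), and Il4ra, the IL-4 receptor chain, fell by 0.52 ± 0.07 (adjusted p = 0.00551). Neither passed with LPS, where Fcgr1 gave 0.40 and Il4ra 0.11. Cd163, a scavenger receptor that IL-10 induces in macrophages, was not called with either stimulus (0.02 with LPS and −0.10 with IL-4).

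Among 28 measured regulators of Il10 transcription, LPS raised 16 and lowered 4 (median 0.58), and IL-4 raised 7 and lowered 1 (median 0.07). The shares of all rows were 15.4% raised and 22.4% lowered with LPS, and 3.35% raised and 2.05% lowered with IL-4. On the same 7 arrays LPS raised 16 and lowered 7, and IL-4 raised 10 and lowered 5, while the rows called over the whole array went up to 47.4% (LPS) and 30.1% (IL-4). Over all other settings the count raised with IL-4 ran from 3 to 11, and the count lowered from 0 to 5. Of the rises with IL-4, Nfkbiz lost its call in 14 other settings, Crem in 8, Junb and Bhlhe40 in 6 each and Ets1 in 1. Nfkbiz, an NF-κB cofactor, rose by 3.63 ± 0.07 with LPS (SE, limma adjusted p = 1.09e-08), the interferon regulatory factor Irf1 by 2.53 (adjusted p = 1.45e-07) and the AP-1 subunit Junb by 1.68 (adjusted p = 1.36e-06). The repressor Prdm1 (Blimp-1) also rose by 1.68 (adjusted p = 1.62e-04). Rps6ka5, which encodes the kinase MSK1, fell by 1.05 ± 0.08 (adjusted p = 1.68e-05), and Irf3, which acts below Toll-like receptors, by 0.32 (adjusted p = 0.00173). Hdac11, a histone deacetylase that represses Il10, fell by 0.24 (adjusted p = 0.0409), a call lost without any 1 of 7 arrays (−0.18 to −0.24, adjusted p between 0.0513 and 0.125; those of LPS replicates 1 and 2, PBS replicates 1 and 3 and the 3 IL-4 replicates).

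Maf, a transcription factor that drives Il10 in macrophages, followed the same order of conditions as Il10ra. It measured 10.48, 10.37 and 10.56 with LPS, 9.67, 9.49 and 9.56 with IL-4 and 10.06, 10.12 and 9.97 with PBS, and the conditions did not overlap. Maf rose by 0.42 ± 0.07 with LPS (SE, limma adjusted p = 0.00183) and fell by 0.48 ± 0.07 with IL-4 (adjusted p = 0.00806). The call of the fall with IL-4 was lost in 2 other settings, among them the methods' t-test (adjusted p = 0.0582). IL-4 raised the early response factor Egr2 by 1.41 ± 0.09 (adjusted p = 1.40e-04), which was not called with LPS (−0.12). Bhlhe40, known in T cells as a repressor of Il10, rose by 0.71 ± 0.14 with IL-4 (adjusted p = 0.0269), a call lost without any 1 of the IL-4 arrays (0.66 to 0.74, adjusted p between 0.0808 and 0.116).

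The ligand genes lie next to each other on chromosome 1 in the order Il24, Il20, Il19 and Il10, with Mapkapk2 beyond Il10 (gene order from GRCm38.p6). Along 17 genes of this region, these 4 and 13 listed neighbours, 7 rose, 3 fell and 7 were not called with LPS, and none was called with IL-4. Of the neighbours alone, 4 rose and 3 fell with LPS (median 0.06). Among all rows 15.4% rose and 22.4% fell with LPS, and 5.40% were called with IL-4. The 3 falls among 13 neighbours with LPS and the lack of calls with IL-4 are thus near the share of all rows. On the 7 arrays without replicate 3 of LPS and PBS, IL-4 called 2 of the 13 neighbours higher and 2 lower, which is about the share over all rows there (30.1%). Mapkapk2, a kinase that stabilizes cytokine mRNAs, measured 11.83, 11.87 and 11.64 with LPS against 10.73, 10.76 and 10.39 with PBS, a rise of 1.15 ± 0.11 (SE, limma adjusted p = 4.90e-05). Ikbke, a kinase of the interferon response, rose by 1.23 ± 0.06 (adjusted p = 9.08e-07) and Srgap2, a regulator of cell protrusions, by 0.41 ± 0.08 (adjusted p = 0.00368). Rassf5, a Ras effector, fell by 1.33 ± 0.17 (adjusted p = 3.07e-04), the glycolytic regulator Pfkfb2 by 1.20 ± 0.08 (adjusted p = 5.90e-06) and the translation factor gene Eif2d by 0.48 ± 0.05 (adjusted p = 6.19e-05). Rises and falls were thus interleaved along the region. Pfkfb2 lies on the other side of the family genes, beyond Il24. There C4bp rose by 0.19 with LPS (limma adjusted p = 0.0309), a call lost in 9 other settings. Fcmr and Pigr, receptors for antibody on that side, were not called with LPS (0.15 and 0.06).

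**Figure D5:**
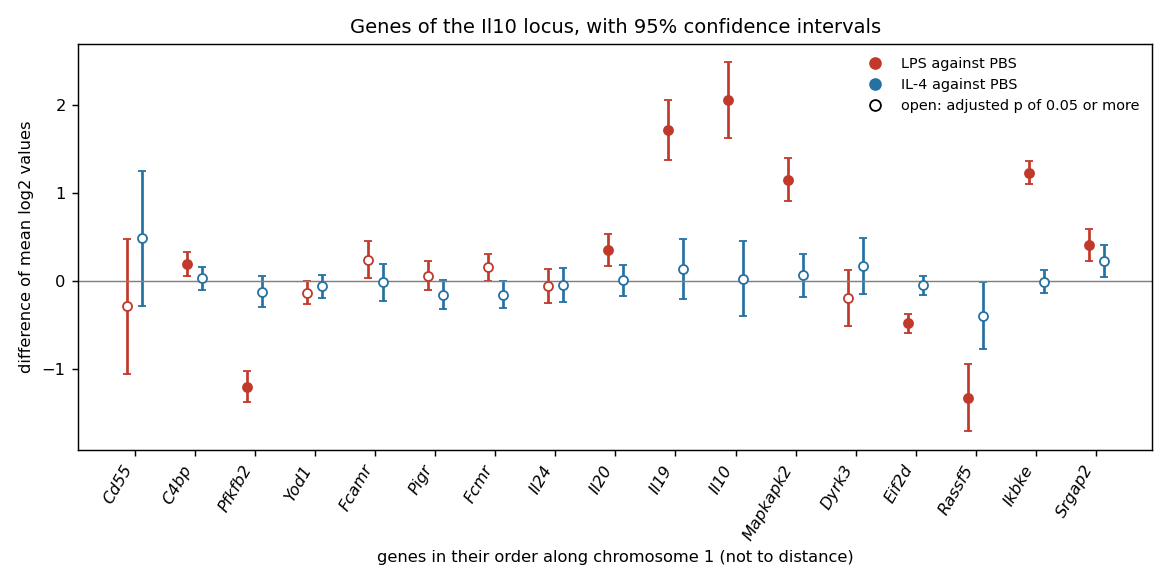
Difference of mean log2 values of 17 genes in their order along chromosome 1 (equal spacing, not distance) for LPS against PBS and IL-4 against PBS, with 95% confidence intervals and filled points for an adjusted p under 0.05. With LPS the rises of Il19 (1.72), Il10 (2.06) and Mapkapk2 (1.15) lie side by side and Il24 stays near 0. With IL-4 no gene is called, beside 5.40% of all rows.

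For each gene that was called, the 3 rows with the most similar profile over the 9 arrays were looked up by Pearson r, as a description, since the arrays share 3 conditions and the difference between conditions sets most of r. For Il10 these were Nptx1 (r = 0.997), which encodes a neuronal pentraxin, Dtx2 (0.997) and Ctrl (0.996), a chymotrypsin-like protease. For Il19 they were Sbno2 (0.998), a corepressor that IL-10 induces, Ctrl (0.996) and Dusp2 (0.994), a MAP kinase phosphatase. Ctrl stood in both sets. Sbno2 rose by 0.76 with LPS (limma adjusted p = 7.81e-05) and gave 0.03 with IL-4, and Dusp2 rose by 2.40 with LPS and gave 0.01 with IL-4. For Il20 the rows were Syt15, Myrfl and Dnase2b, with lower r (0.970, 0.970 and 0.969). For Il10ra they were Ifi207 (0.992), Shisa5 (0.990) and Sp100 (0.990), of which Ifi207 and Sp100 are interferon-induced genes. Sp100 rose by 1.36 with LPS and fell by 1.53 with IL-4, and Ifi207 rose by 0.75 with LPS and fell by 1.11 with IL-4, the same directions as Il10ra.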

How the data were processed

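The RNA of 9 microglia samples was measured on Affymetrix exon arrays, 3 per condition, and conditions were taken from the sample labels. The table deposited by the authors holds expression on a log2 scale, made with RMA in the affy package, whose versions and genome build are not given in the sources used here. RMA corrects background, equalizes the distributions of the arrays by quantiles and summarizes the probes of a gene, so a change common to most genes would be removed. The table held 21212 rows with values from 2.05 to 13.06 and no missing value. A single symbol was available for 18786 rows, several for 6 and none for 2420. Array medians were 7.20 to 7.26 (LPS), 7.37 to 7.39 (IL-4) and 7.32 to 7.37 (PBS). The arrays carry no read depth, and their number limits the precision.

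LPS and IL-4 were each set against PBS, and against each other, in limma 3.58.1 with eBayes in R 4.3.3 (a mean per condition over all 9 arrays, no block, residual df 6, prior df 2.38). All tests were two-sided, p-values were adjusted by Benjamini-Hochberg over all rows, and a log2 fold change is the first mean minus the second. The methods name Student's t-test, which was run as an alternative. The fit was checked on simulated data. Labels do not say whether replicates are separate cultures, so p-values measure the spread between arrays, which may be technical. Same-numbered LPS and PBS arrays deviated together (r = 0.578, 0.651 and 0.800), although the numbers 1 and 2 were not told apart, since PBS replicate 1 correlated at 0.605 with LPS replicate 2. Same-numbered IL-4 and PBS arrays had r = 0.339, −0.255 and 0.0752. The labels state no pairing, and the main fit used none. Replicate blocks were run only as alternatives, over all 9 arrays and over the 6 arrays of each comparison, those with IL-4 included.

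The genes, lists and rules were chosen with earlier results of these data known, so list counts are no independent evidence. The genes named are the 6 family genes, of each list the 3 largest rises and 3 largest falls among the called genes with LPS and with IL-4, receptors, ligands and neighbours, and for each called family gene the 3 rows with the highest Pearson r. Genes named outside this rule, Cd163, Jak1, Stat3, Ebi3 and Il18bp among them, were chosen after their values were seen. Alternatives were another test, fewer arrays, a variance trend (statmod 1.5.0 was loaded), array weights, further normalization, a filter on dim rows, replicate blocks and leaving out arrays. The list counts under these settings were added after seeing the data. Listed genes without a named row were not analysed here, nor were miRNA arrays and RT-PCR data. Promoter windows and gene order came from RefSeq (GRCm38.p6), read with Python 3.11.15.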

Additional observations from a re-analysis of the deposited data

How the results depend on the processing

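Of 330 log2 fold changes of the 6 genes under 19 other settings, 303 kept their direction and their side of the threshold, 1 lost its call, 5 gained one and 21 turned direction, all of the last among changes that were not called in either setting. The t-test left Il20 uncalled for LPS against PBS (0.36, adjusted p = 0.0553). Il10rb gained a call for LPS against PBS with array weights (−0.18), with the replicate block over the 6 arrays (−0.17) and with the 7 arrays left after dropping the third replicate of LPS and PBS (−0.16), and for IL-4 against PBS with array weights (−0.26) and 7 arrays (−0.27). The replicate block changed no other call of the 6 genes. Leaving out the 7071 dimmest rows removed the 4 ligand genes and left 1 called gene for LPS against PBS and 1 for LPS against IL-4. With array weights and with 7 arrays 2 genes were called for IL-4 against PBS. Directions that turned were those of Il24 for LPS against PBS with array medians subtracted (0.053), for IL-4 against PBS with further quantile normalization (0.0087) and for LPS against IL-4 with medians subtracted (0.14). They were also those of Il10 for IL-4 against PBS with array weights (−0.046), medians subtracted (−0.017) and 7 arrays (−0.017), of Il20 for IL-4 against PBS with medians subtracted (−0.035), and of Il10rb for LPS against IL-4 with array weights (0.077), medians subtracted (0.15) and 7 arrays (0.11). Over all rows the t-test called 5303 for LPS against PBS and 716 for IL-4 against PBS, where array weights called 8295, the replicate block over the 6 arrays 287 and 7 arrays 6389, against 1146 with all 9 arrays.

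Leaving out 1 array at a time gave between 466 and 2033 called rows for IL-4 against PBS, fewest without IL-4 replicate 2 and most without PBS replicate 3. The log2 fold changes that turned direction in this way, none of them called, ranged from −0.14 to 0.028 (Il24, LPS against PBS), −0.017 to 0.076 (Il10, IL-4 against PBS), −0.061 to 0.073 (Il20, IL-4 against PBS), −0.13 to 0.041 (Il24, IL-4 against PBS), −0.047 to 0.0039 (Il24, LPS against IL-4) and −0.064 to 0.11 (Il10rb, LPS against IL-4). Without PBS replicate 3, Il10rb was not called for IL-4 against PBS.

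Subtracting array medians moved the median change by 0.11 for LPS against PBS, −0.04 for IL-4 against PBS and 0.15 for LPS against IL-4, and the share of calls that were higher was then 63.9%, 50.3% and 72.1%, against 40.8%, 62.0% and 44.8% without it. The causes of these shifts were not tested. Il10, Il19, Il20 and Il10ra stayed higher with LPS under it. The precision is that of 3 arrays per condition, and Il10, Il19, Il20 and Il24 were among the dim rows, whose signal over background the deposited values do not give.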

Other observations

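A list of other cytokines and decoy receptors, most of them known to limit inflammation, also moved with LPS. Of 11 measured genes 7 rose and 1 fell (median 0.80), and with IL-4 2 rose and none fell (median −0.07). Both counts of rises include Il6, which the study uses as a marker of M1 activation. LPS raised 15.4% and lowered 22.4% of all rows, and IL-4 raised 3.35%. With the third replicates of LPS and PBS left out, 2 were also lower with IL-4, as were 13.5% of all rows. Il6, which acts through STAT3 as IL-10 does and can promote or limit inflammation, rose by 8.73 ± 0.10 with LPS (SE, limma adjusted p = 3.05e-09) and by 0.81 with IL-4 (adjusted p = 0.00346). The call with IL-4 was lost in 2 other settings, among them the t-test (adjusted p = 0.0680). Il27, a subunit gene of interleukin-27, measured 11.31, 11.19 and 10.87 with LPS against 7.05, 6.97 and 7.02 with PBS, a rise of 4.11 ± 0.10 (limma adjusted p = 2.72e-08), and its partner Ebi3 rose by 1.81. Il18bp, which neutralizes IL-18, rose by 1.85 with LPS and was not called with IL-4 (−0.07). Il1rn rose by 0.60 ± 0.14 with IL-4 (adjusted p = 0.0402), a call lost without LPS replicate 1 or 2, PBS replicate 1 or any IL-4 array (0.58 to 0.67, adjusted p between 0.0662 and 0.142). Tgfb3, a transforming growth factor, fell by 0.46 ± 0.11 with LPS (adjusted p = 0.0105), and this was lost with the t-test (adjusted p = 0.0533).

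Il24 had the same deposited value on 4 of the 9 arrays and 6 distinct values in all, whereas the other 5 genes had a different value on each array. Over all rows of the array, 5.48% (1163) repeat a value on at least 4 arrays. For Il24 the number of distinct levels is thus smaller than the number of arrays.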
